A study of Mus musculus with 9 samples.

Results

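Dietary fat leaves the gut as lipoprotein particles, and 10 genes of that route were followed here in mouse intestinal organoids. The genes were taken by symbol from a table of 23955 gene rows. They are the apolipoproteins Apob, Apoa1, Apoa4, Apoc3 and Apoa5, the particle assembly gene Mttp, the fatty acid binding proteins Fabp1 and Fabp2, and the cholesterol transport genes Npc1l1 and Scarb1. Organoids are epithelial cultures that grow as small hollow bodies in a gel. RNA was sequenced from 9 organoid samples in 3 groups of 3 biological replicates, and every animal of the series carried the Apc min/+ mutation, a truncation of 1 allele of the tumor suppressor Apc. MIN organoids came from normal-looking gut tissue beside the tumors, adenoma organoids came from adenomatous polyps, and the sulindac group was grown from such polyps and treated with sulindac, a non-steroidal anti-inflammatory drug (NSAID). All groups were grown with Noggin, EGF, bFGF, R-spondin1 and B27. The dose and time of sulindac on organoids, the sex and age of the mice and the gut segment are not given in the sources used here, and wild-type organoids were not analysed here.

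In the absorptive enterocyte, fatty acids and cholesterol are taken up at the brush border, carried through the cytosol by fatty acid binding proteins and esterified in the endoplasmic reticulum. There the microsomal triglyceride transfer protein, encoded by Mttp, loads the lipid onto the scaffold protein encoded by Apob, and the resulting chylomicron takes on smaller apolipoproteins before it is secreted. The genes Apoa1, Apoc3, Apoa4 and Apoa5 lie side by side on mouse chromosome 9, and Apoa5 is known chiefly as a liver gene that helps to clear triglyceride from plasma.

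The promoters of 3 genes of this cluster and of Apob and Fabp1 are shown because the cluster genes moved in opposite directions and because Apob and Fabp1 fell with Apoa1 and Apoa4. RefSeq promoter windows in build GRCm38.p6 were found for 8 of the 10 genes. Each sequence below lies on the plus strand, starts 250 bases before the RefSeq start and ends before the first annotated transcript base. Capitals mark motif matches.
Apoa1, chr9:46228380-46228579: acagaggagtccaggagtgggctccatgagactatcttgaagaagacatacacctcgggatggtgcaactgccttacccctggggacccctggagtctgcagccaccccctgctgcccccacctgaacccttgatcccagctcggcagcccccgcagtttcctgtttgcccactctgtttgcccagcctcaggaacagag
Apoa4, chr9:46240594-46240695: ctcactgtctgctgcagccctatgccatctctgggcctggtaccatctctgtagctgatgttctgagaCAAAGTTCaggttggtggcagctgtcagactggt
Apoa5, chr9:46268358-46268607: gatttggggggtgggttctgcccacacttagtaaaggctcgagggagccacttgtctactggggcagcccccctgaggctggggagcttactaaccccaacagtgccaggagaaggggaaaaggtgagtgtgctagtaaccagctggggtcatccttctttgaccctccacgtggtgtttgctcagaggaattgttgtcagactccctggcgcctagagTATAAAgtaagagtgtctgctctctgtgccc
Apob, chr12:7977427-7977628: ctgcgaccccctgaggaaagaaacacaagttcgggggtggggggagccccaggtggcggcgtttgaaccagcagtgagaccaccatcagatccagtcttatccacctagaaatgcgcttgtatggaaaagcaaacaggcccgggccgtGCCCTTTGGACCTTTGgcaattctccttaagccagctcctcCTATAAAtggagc
Fabp1, chr6:71199629-71199826: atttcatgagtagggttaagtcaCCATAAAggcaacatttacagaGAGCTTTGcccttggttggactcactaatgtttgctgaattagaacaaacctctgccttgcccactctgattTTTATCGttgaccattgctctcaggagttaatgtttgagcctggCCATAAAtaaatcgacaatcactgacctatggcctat

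The motifs were chosen with the sequences in view and were searched on both strands in the 250 bases before each start. The HNF4-type letters CAAAGNNC were present in 4 of the 8 windows (Apoa4, Apob, Fabp1 and Fabp2) and in 15.4% of all 32851 windows. The CDX-type letters TTTATNG were present in 3 of the 8 windows (Apob, Fabp1 and Fabp2) and in 9.81% of all. In Apob they overlap the TATA box TATAAA, which 3 of the 8 windows (Apob, Apoa5 and Fabp1) and 12.4% of all windows held. The Fabp1 TATA box lies past the end of the stretch printed above. The HNF1-type letters GTTAATNA were present in 1 window, that of Npc1l1, against 2.33% of all, and the GATA-type letters AGATAA were present in 0, against 9.99%. A match describes the letters of the window and is not evidence of binding.

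Levels are in CPM, that is, counts set to a common library size, with totals scaled by TMM, edgeR's correction for differences in composition. The smallest level that the depth can show, 3 counts, lay between 0.0641 and 0.10 CPM and covers counting error only. Changes are log2 fold changes with their standard error (SE), tested with edgeR's quasi-likelihood test over all genes, and the threshold was a 1% false discovery rate (FDR). In bulk RNA, fewer cells of a type and less RNA per cell cannot be told apart.

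Of the 10 genes, 8 were far lower in adenoma organoids than in MIN organoids, and Scarb1 and the scarce Apoa5 were higher. Together the 10 genes took 0.423%, 0.356% and 0.212% of all counts in MIN, 0.00964%, 0.00878% and 0.00853% in adenoma, and 0.00819%, 0.00767% and 0.00828% in sulindac-treated adenoma. Between adenoma and MIN, 8 of the 10 genes were lower, against 20.1% of all genes tested, and 2 (Apoa5 and Scarb1) were higher, against 18.5% of all. Of these, Apoa1, Apoa4, Apoc3 and Fabp1 passed the low-count filter on their MIN counts alone, and Apoa5 on its adenoma counts alone. For each of these genes only a change in the direction seen could have been called. The MIN and adenoma samples did not overlap for any of the 10, but the share of all genes without overlap was not computed. The median log2 fold change of the 10 genes was -7.42, and that of all 13744 genes tested was -0.01.

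**Figure D1:**
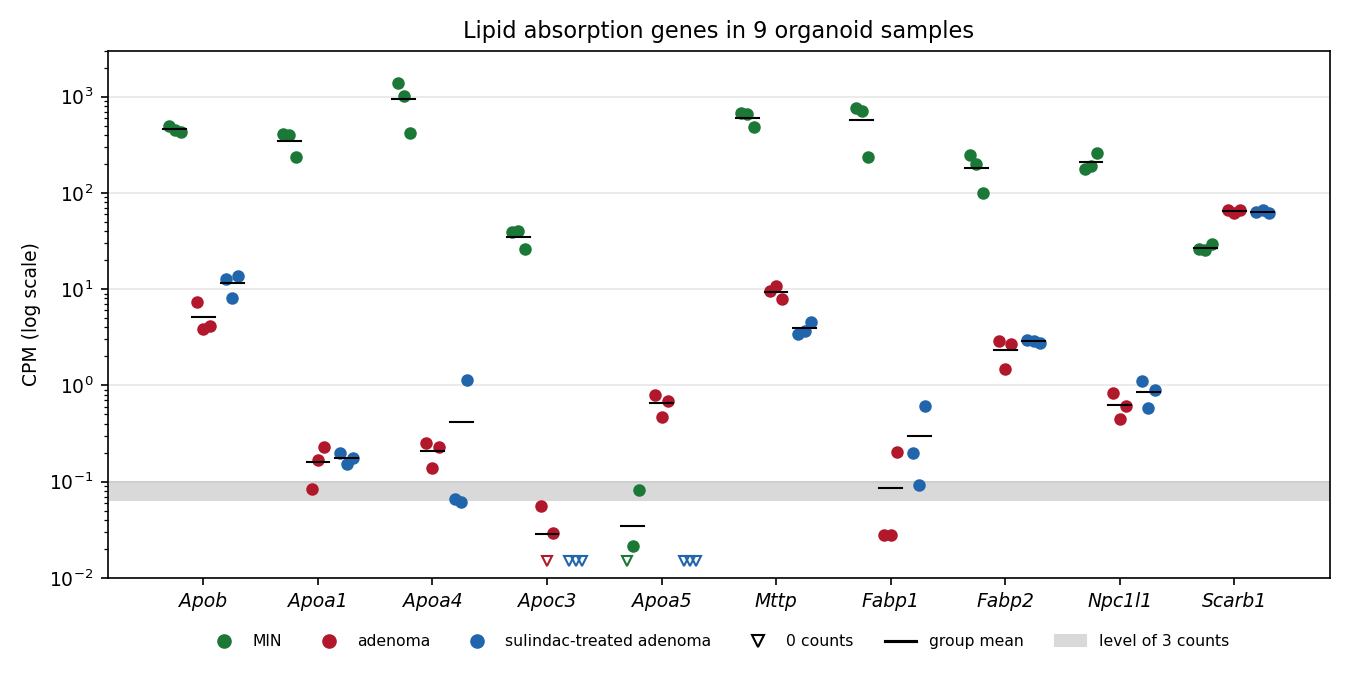
Level of each of the 10 genes in the 9 organoid samples, in CPM on a log axis, with 1 point per sample and a bar at the group mean. Open triangles at the bottom mark samples with 0 counts and the grey band is the level of 3 counts. For 8 genes the MIN points lie far above all others, Apoa5 is present in adenoma alone above the band, and Scarb1 is higher in both adenoma groups than in MIN.

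Apob encodes the structural protein of the chylomicron. The 3 MIN samples held 494, 453 and 426 CPM of it. The adenoma samples held 7.41, 3.86 and 4.13 CPM and the sulindac-treated ones 12.9, 8.01 and 13.7 CPM. Every MIN sample was thus far above every adenoma sample, and Apob fell by 6.47 on the log2 scale in adenoma (SE 0.27, adjusted p = 3.73e-07).

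Apoa1 encodes the main protein of high-density lipoprotein, and Apoa4 a protein that the small intestine secretes on chylomicrons. The MIN samples held 412, 397 and 234 CPM of Apoa1, and the 3 adenoma samples held 3, 6 and 8 counts of it. The adenoma mean was 0.0463% of the MIN mean, with a log2 fold change of -11.05 (SE 0.38, adjusted p = 1.29e-07). Apoa4 stood at 1381, 1007 and 418 CPM in MIN and at 9, 5 and 8 counts in adenoma, with a log2 fold change of -12.11 (SE 0.62, adjusted p = 1.10e-06). The adenoma counts of both genes were close to the limit of the depth. Of all 50-base stretches of Apoa4, 60.9% also lie, on the opposite strand, in GENCODE M21 transcripts of Gm10680, a symbol that is absent from the table, so reads of the pair cannot be told apart if counting ignored strand.

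Apoc3, whose protein slows the clearance of triglyceride-rich particles, had 1614, 1860 and 951 counts in MIN, 2, 0 and 1 in adenoma, and 0 in each sulindac-treated sample. Over the groups its level was 1254-fold higher in MIN than in adenoma, with a 95% counting interval of 429 to 6085, and it was at least 376-fold higher in MIN than in the sulindac group.

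Apoa5 went the other way from its 3 neighbours in the cluster. It had 0, 1 and 3 counts in MIN, 28, 17 and 24 counts in adenoma, and 0 in all 3 sulindac-treated samples. It was the only one of the 10 genes that was above 3 counts in the adenoma group alone. The ratio of adenoma to MIN was 20.3, with a 95% counting interval of 7.57 to 76.5, and the edgeR test gave an adjusted p of 0.000744. The level was low throughout, 0.652 ± 0.160 CPM (SD, n = 3) in adenoma. Part of its sequence is also annotated on the opposite strand, since 16.3% of its 50-base stretches lie in transcripts of Gm47544, a symbol that the table lacks as well.

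For Mttp the MIN samples stood at 669, 660.3 and 489.7 CPM. The adenoma samples stood at 9.52, 10.9 and 7.86 CPM and the sulindac-treated ones at 3.43, 3.70 and 4.60 CPM. The 3 groups did not overlap, and the order was the same in every sample: MIN above adenoma above sulindac. The log2 fold change between adenoma and MIN was -6.00 (SE 0.20, adjusted p = 1.27e-07).

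The fatty acid binding proteins Fabp1, named for the liver but abundant in proximal gut, and Fabp2, the intestinal form, both fell. Fabp1 had 771, 709 and 234 CPM in MIN but 1, 1 and 7 counts in adenoma, with a log2 fold change of -12.66 (SE 0.75, adjusted p = 2.39e-06). Fabp2 went from 249.8, 199 and 100.3 CPM to 2.89, 1.48 and 2.69 CPM, with a log2 fold change of -6.28 (SE 0.41, adjusted p = 4.52e-06). Unlike Fabp1, Fabp2 thus kept 53 counts or more in each adenoma sample.

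The cholesterol genes moved in opposite directions. Npc1l1, the ezetimibe-sensitive sterol uptake protein of the brush border, had 179, 192 and 259 CPM in MIN and 0.842, 0.447 and 0.607 CPM in adenoma, a log2 fold change of -8.36 (SE 0.26, adjusted p = 9.27e-08). Scarb1, the receptor for high-density lipoprotein SR-BI, which many cell types express, had 26.1, 25.6 and 29.4 CPM in MIN. It reached 66.5, 62.5 and 66.6 CPM in untreated adenoma and 63.5, 66.7 and 61.5 CPM in treated adenoma. It rose by 1.27 on the log2 scale in adenoma (SE 0.11, adjusted p = 1.71e-05), and its samples varied little within each group. Scarb1 alone accounted for 0.618% to 1.33% of the summed CPM of the 10 genes in MIN and for 75.3% to 80.0% in adenoma.

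Levels of different genes were compared per kilobase of the longest coding transcript. In MIN, Fabp1 (1033 CPM per kb), Apoa4 (515) and Apoa1 (336) led, followed by Fabp2 (189.7), Mttp (153), Apoc3 (49.3), Npc1l1 (46.9), Apob (32.8), Scarb1 (10.7) and Apoa5 (0.0137). Neighbours from Fabp1 down to Mttp overlapped between samples, as did Apoc3 and Npc1l1, whereas Mttp lay above Apoc3, Npc1l1 above Apob and Apob above Scarb1 in all MIN samples. In adenoma the order was changed: Scarb1 led with 25.9 CPM per kb, Fabp2 (2.44) and Mttp (2.38) followed with overlapping samples, and every other gene had at most 0.532 CPM per kb in any sample.

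The MIN samples were not alike. MIN 3 was the lowest of the 3 for Apob, Apoa1, Apoa4, Apoc3, Mttp, Fabp1 and Fabp2, and the highest for Npc1l1 and Scarb1. Relative to the mean of the other MIN samples, it held 31.6% of Fabp1, 35.0% of Apoa4, 44.7% of Fabp2 and 57.8% of Apoa1, but 90.0% of Apob and 139.8% of Npc1l1. The summed level of 10 enterocyte markers in MIN 3 was 94.5% of that mean. Leaving MIN 3 out changed none of the 10 calls between adenoma and MIN.

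The effect of sulindac was read by comparing treated with untreated adenoma organoids. Apoa5 and Mttp were lower with sulindac, which is 2 of the 6 genes that could be tested, against 9.1% of all 12962 genes tested, and 0 were higher, against 8.32% of all. Apoa5 passed the low-count filter on its untreated counts alone, so only a fall could have been called for it. Apoa1, Apoa4, Apoc3 and Fabp1 had too few counts in both groups to pass the filter. At an unadjusted p under 0.05, 1 of the 6 genes, Apob, was higher. The median log2 fold change of the 6 was 0.14, against -0.01 for all genes tested. Of all genes past the threshold, 47.8% were higher with sulindac, and 23.3% were when libraries were scaled by their totals alone.

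Apoa5 went from 28, 17 and 24 counts in untreated adenoma to 0 in every treated sample, which is at least 7.01-fold lower against a floor of 3 counts per library (adjusted p = 0.00150). Mttp fell by 1.26 on the log2 scale (SE 0.20, adjusted p = 0.00213). The Mttp call was lost without Sulindac 1 (adjusted p = 0.0122) or Sulindac 2 (adjusted p = 0.0114), although all treated samples lay below all untreated ones.

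For Apob, the partner of Mttp in particle assembly, the values lay in the other direction. The treated samples, at 8.01 to 13.7 CPM, lay above the untreated ones, at 3.86 to 7.41 CPM, with a log2 fold change of 1.18 (SE 0.30) that missed the threshold (adjusted p = 0.0182). It passed with all 9 samples in 1 fit (adjusted p = 0.00550), with DESeq2 (adjusted p = 0.000558), with the replicate block (adjusted p = 0.00653) and without Adenoma 1 (adjusted p = 0.00456). Fabp2 (0.29, SE 0.27, adjusted p = 0.443), Npc1l1 (0.45, SE 0.37, adjusted p = 0.383) and Scarb1 (-0.02, SE 0.09, adjusted p = 0.864) overlapped between treated and untreated samples.

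Among the genes below the filter, Apoa1 had 6, 5 and 6 counts in the treated samples, close to the 3, 6 and 8 of the untreated ones. Apoa4 had 2, 2 and 39 counts and Fabp1 6, 3 and 21 counts with sulindac, against 9, 5 and 8 counts and 1, 1 and 7 counts without. Fitted without the filter, the log2 fold change was 1.07 for Apoa4 (SE 1.01, adjusted p = 0.503) and 1.83 for Fabp1 (SE 0.86, adjusted p = 0.153), and neither passed the threshold. Sulindac 3 thus held 39 of the 43 treated counts of Apoa4 and 21 of the 30 of Fabp1, and also 43 of the 46 treated counts of Olfm4, a crypt stem cell marker that was abundant in MIN. For the other stem cell markers followed, Lgr5, Ascl2, Smoc2 and Axin2, Sulindac 3 was not the highest treated sample in CPM. Of the 5 stem cell markers, 2 were lower and 2 higher in adenoma than MIN, against 20.1% and 18.5% of all genes.

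Compared with MIN, the treated adenoma organoids were lower in 8 of the 9 genes tested, against 26.8% of all 13551 genes tested, and higher in 1, Scarb1, against 23% of all. Apoa5, at 0 to 3 counts in both groups, was not tested. Apoa1, Apoa4, Apoc3 and Fabp1 passed the low-count filter on their MIN counts, so only a fall could have been called for them. The median log2 fold change of the 9 genes was -7.93, also with Apoc3 set at its bound, against -0.03 for all genes tested. Apob (-5.31, SE 0.22), Mttp (-7.28, SE 0.20), Fabp2 (-6.00, SE 0.36) and Npc1l1 (-7.93, SE 0.24) had treated means between 0.410% and 2.52% of the MIN mean. Apoa1, Apoa4 and Fabp1 had treated means between 0.0450% and 0.0527%. The 2 comparisons with MIN share the same 3 MIN samples.

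**Figure D2:**
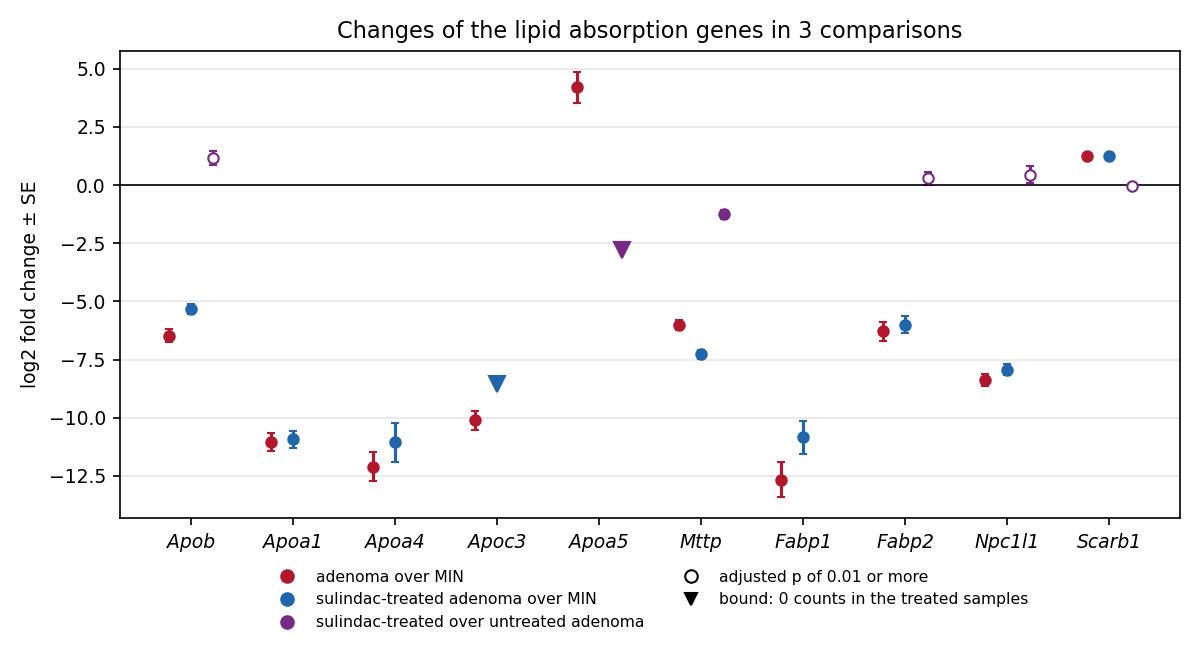
Log2 fold change with its SE for each gene in adenoma over MIN, sulindac-treated adenoma over MIN and sulindac-treated over untreated adenoma. Filled points passed an FDR of 1% with edgeR, open points did not, triangles are bounds for genes with 0 counts in the treated samples, and combinations that were not tested are absent. The changes against MIN reach -12.66, whereas those between treated and untreated adenoma lie between -1.26 and 1.18 apart from the Apoa5 bound.

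The genes beside the cluster on chromosome 9 were looked up as well, more of them on the Apoa1 side than on the Apoa5 side. These flanking genes were chosen after their values were seen, so their counts describe them and are not a test. In order along the chromosome the genes are Rnf214, Pcsk7, Tagln, Sidt2, Pafah1b2, Sik3, Apoa1, Apoc3, Apoa4, Apoa5, Zpr1 and Bud13. Of the 8 flanking genes, 0 passed the threshold between adenoma and MIN by edgeR, against 20.1% of all genes lower and 18.5% higher, and 0 under each of the alternatives run, DESeq2 included. At an unadjusted p under 0.05, edgeR gave 1 of them, Sik3, with a log2 fold change of -0.36 (SE 0.13, adjusted p = 0.0432). The others lay between -0.13 for Pcsk7 and 0.25 for Bud13. With sulindac, only Sidt2 of the 8 passed against untreated adenoma (0.49, SE 0.10, adjusted p = 0.00547), and 0 passed with library size alone, with the replicate block, or without Adenoma 2 or any 1 of the treated samples. Between treated adenoma and MIN, Sidt2 (0.50, SE 0.08) and Zpr1 (0.30, SE 0.08) were higher and Sik3 (-0.30, SE 0.08) was lower, against 23% and 26.8% of all genes. With any 1 sample left out, 1 of the 8 was higher and 0 were lower there. The order of genes was taken from RefSeq.

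**Figure D3:**
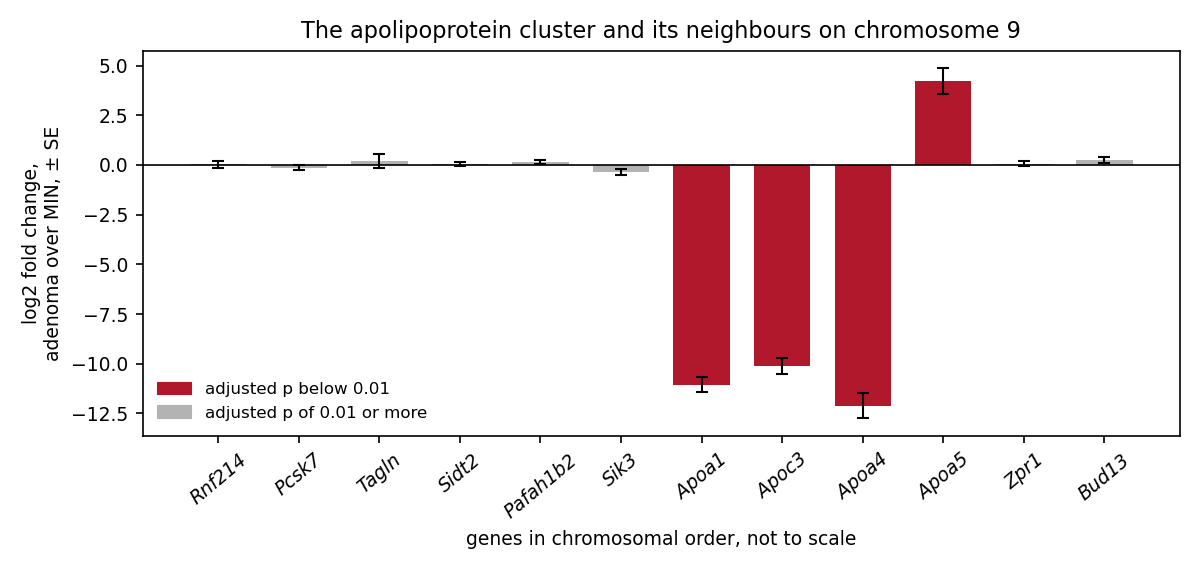
Log2 fold change of adenoma over MIN, with its SE, for the 12 genes around the apolipoprotein cluster in chromosomal order, not to scale. Red bars passed an FDR of 1% with edgeR and grey bars did not. Apoa1, Apoc3 and Apoa4 fell by more than 10 on the log2 scale, Apoa5 rose by 4.20 and the 8 flanking genes stayed between -0.36 and 0.25.

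Other genes of the absorption route fell as well, though not throughout, and the counts of these lists stand against 20.1% of all genes lower and 18.5% higher in adenoma than MIN. Of 9 genes of fatty acid uptake and activation, 5 were lower in adenoma and 1 was higher, with a median log2 fold change of -0.93. The fatty acid translocase Cd36 went from 647 counts over the MIN samples to 1 over the adenoma samples, a ratio of 550.3 with a 95% counting interval of 98.4 to 21767. The transporter and acyl-CoA synthetase Slc27a2 fell by 2.41 (SE 0.16), while Acsl4, an acyl-CoA synthetase for polyunsaturated fatty acids, rose by 1.04 (SE 0.13). Of 8 genes of triglyceride synthesis, 7 were lower and 0 higher (median -1.26), led by Dgat1, which makes triglyceride in the last step (-2.81, SE 0.11).

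Of 10 genes of chylomicron assembly and lipid droplets, 6 were lower and 0 higher (median -0.69). The largest drops were in the lipid droplet and particle lipidation gene Cideb (-4.52, SE 0.34), in Tm6sf2 (-4.11, SE 0.32) and in A1cf (-3.20, SE 0.28), a cofactor of the Apob mRNA editing enzyme. That enzyme, Apobec1, fell by 1.70 (SE 0.22). The secretory coat genes Sar1b (0.06, adjusted p = 0.697) and Sec24c (-0.02, adjusted p = 0.856) did not pass the threshold.

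Of 8 other sterol genes, 5 were lower and 0 higher (median -1.36), among them the cholesterol exporters Abca1 (-6.41, SE 0.86), Abcg5 (-4.15, SE 0.36) and Abcg8 (-3.87, SE 0.37). Of 7 other apolipoproteins 4 were tested, of which Apoc2, the activator of lipoprotein lipase, was lower (-5.26, SE 0.56) and Clu was higher (1.76, SE 0.22). Of 6 genes of bile acid handling 5 were tested and 4 were lower, among them the ileal uptake transporter Slc10a2 (-6.93, SE 0.37). The edgeR counts of 0 higher genes were also 0 with DESeq2. At an unadjusted p under 0.05, 0 triglyceride and 0 assembly genes were higher, against 1 sterol gene (Npc2) and 1 bile acid gene (Fgf15). With the replicate block, or without MIN 3, 1 bile acid gene passed as higher, and with library size alone 1 sterol gene did.

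Of 18 transcription factors and coactivators known to act on enterocyte lipid genes, 15 were lower in adenoma and 0 were higher (median -1.81). With DESeq2, and at an unadjusted p under 0.05 in edgeR, 0 were higher as well. Cdx1, a homeobox factor of the intestine, went from 3743, 5330 and 3627 counts in MIN to 2, 2 and 5 in adenoma (-10.16, SE 0.25). Creb3l3, a membrane-bound factor of the liver and small intestine, went from 3035, 3293 and 1091 counts to 6, 8 and 8 (-8.10, SE 0.47). MIN 3 was again the lowest of the 3 for Creb3l3. The bile acid receptor Nr1h4 (-5.49, SE 0.31), the fatty acid receptor Ppara (-4.13, SE 0.25) and Hnf4g (-3.52, SE 0.20) fell too, as did Hnf4a (-2.09, SE 0.14), which kept 8482 to 10862 counts in each adenoma sample. Klf4, Ppard and Pparg did not pass.

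With sulindac, several lipid genes rose while the 8 fallen genes above stayed far below MIN. Of all genes tested, 8.32% were higher and 9.1% lower with sulindac, and the counts of the lists that follow stand against these shares. Of the 8 triglyceride genes, 4 were higher and 0 lower in treated than in untreated adenoma (median 0.57), namely Lpin2 (1.44, SE 0.12), Mogat2 (1.27, SE 0.18), Agpat2 (0.62, SE 0.12) and Dgat2 (0.53, SE 0.11). DESeq2 gave 5 higher and 0 lower, and at an unadjusted p under 0.05 edgeR gave 6 and 0. The count of higher genes was 2 without Adenoma 1, Adenoma 2, Sulindac 1 or Sulindac 3, and 2 with library size alone. Mogat2, which starts the resynthesis of triglyceride in the enterocyte, averaged 66.2 ± 9.02 CPM in MIN (SD, n = 3 in each group). It averaged 27.9 ± 7.01 CPM in untreated and 66.9 ± 8.62 CPM in treated adenoma.

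Of 8 fatty acid genes tested, 4 were higher, led by Acsl3 (0.92, SE 0.10), and 1, Slc27a2, was lower (-3.99, SE 0.42). Of 7 sterol genes tested, 3 were higher, among them Soat1 (0.89, SE 0.15) and Npc1 (0.79, SE 0.13). Of the 10 chylomicron assembly and lipid droplet genes, 1 was higher and 1 lower (median 0.10). The higher gene was Plin3, a lipid droplet coat protein (0.55, SE 0.12, adjusted p = 0.00867), and 0 were higher with library size alone, with at least 10 counts in every sample, or without Adenoma 1, Adenoma 2 or any 1 of the treated samples. A1cf fell further, from 120, 253 and 127 counts in adenoma to 20, 20 and 15 (-3.04, SE 0.37). Of 16 transcription factors tested, Klf4 (0.98, SE 0.12) and Ppard (0.50, SE 0.09) were higher and Ppara was lower (-1.36, SE 0.30). Apoa2, another protein of high-density lipoprotein, was lower (-2.22, SE 0.45), at 5 to 8 counts per treated sample, and the other 3 of that list that were tested did not pass. No gene of that list passed as lower without Adenoma 2, Adenoma 3 or any 1 of the treated samples. These counts rest on few samples. For the fatty acid genes 2 were higher without Adenoma 2 or Sulindac 3 and 1 without Sulindac 2. For the sterol genes 1 was higher without Adenoma 2 or Sulindac 1 and 0 without Sulindac 3. For the transcription factors 1 was higher without Adenoma 1, Adenoma 2 or any 1 of the treated samples, and Ppara did not pass in those fits.

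Markers of cell type moved with these groups. Their counts stand against 20.1% of all genes lower and 18.5% higher in adenoma than MIN, and 9.1% lower and 8.32% higher with sulindac. All 10 enterocyte markers were lower in adenoma than in MIN, and their summed level was 3376 to 3631 CPM in MIN, against 258 to 293 CPM in untreated and 319 to 374 CPM in treated adenoma. With sulindac, 6 of these markers were tested (median -0.99), of which Vil1 rose (0.72, SE 0.14), from 195 to 321 CPM on average, whereas Anpep (-1.81, SE 0.38) and Sis (-1.87, SE 0.36) fell. With library size alone, 0 of the 6 were higher and 3 lower, and without Adenoma 2, 0 were higher and 0 lower. Without any 1 of the treated samples, 0 were higher and 1 was lower. Summed without Scarb1, the lipid absorption genes had 2186 to 4195 CPM in MIN and 16.7 to 21.9 CPM in adenoma. The 5 mesenchymal markers summed to 107 to 262 CPM in untreated adenoma, against 3.67 to 5.21 CPM in MIN and 3.67 to 9.26 CPM in treated adenoma, nearly all of it Vim. Between adenoma and MIN, 2 of the 3 mesenchymal markers tested were higher, Vim (5.58, SE 0.38) and Pdgfra (2.49, SE 0.36, from 19 to 92 counts over the group), and Col1a1 (1.68, SE 0.43, from 45 to 126 counts) missed the threshold (adjusted p = 0.0101). Vim (-5.11, SE 0.48) and Col1a1 (-1.48, SE 0.33) were lower with sulindac, where 1 of the 3 passed as lower with RLE scaling, without the low-count filter, with all 9 samples in 1 fit, with the replicate block or with any 1 sample left out. Col1a2 and Col3a1 were at 0 in every sample. The 5 hepatocyte markers summed to at most 9.45 CPM in any sample. In adenoma Alb was at 0 and Ttr at 7, 11 and 20 counts. Serpina1a had 31, 65 and 42 counts in adenoma and 29, 23 and 48 in MIN. Of the 3 hepatocyte markers tested between adenoma and MIN, 2 were lower and 0 higher. The 5 leukocyte markers summed to at most 4.09 CPM, mostly Itgam in MIN. Ptprc had 0, 1 and 0 counts in MIN, 8, 4 and 4 in untreated adenoma and 0 in each treated sample. Without the low-count filter, 1 leukocyte marker was higher and 1 lower in adenoma than MIN. Of 4 markers of proximal gut, 3 were lower in adenoma and 1, Pdx1, was higher (5.26, SE 0.30), and the 3 distal markers tested were lower. The part of these markers in the changes of the lipid genes was not tested, and a difference in gut segment between the groups cannot be told apart from a difference in tissue.

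Among the 6 genes whose pattern over the 9 samples was most like that of Apoa1 were AI747448, Gm8979, Gm1966, Gm4070 and Clic6, with root mean square differences of 0.27 to 0.44 on the log2 scale among 12185 genes compared. Of these, 85.8% of the 50-base stretches of Gm8979, 17.5% of those of Gm1966 and 97.8% of those of Gm4070 lie in transcripts of other genes, so their counts are uncertain. Of the other genes followed here, Fabp1 (0.45) was 7th in this order, Apoa4 (0.72) 22nd, Npc1l1 (0.85) 34th, Mttp (1.28) 91st, Apoc3 (1.37) 103rd, Fabp2 (1.52) 122nd and Apob (1.59) 136th. Scarb1 (4.83) was 11125th, and Apoa5 was below the minimum level. This order depends on level as well as pattern, since the 0.5 CPM added before the log2 shrinks the changes of less abundant genes. Apoc3, with a log2 fold change of -10.11 in adenoma over MIN, thus came after Mttp, with -6.00.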

How the data were processed

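The authors sequenced RNA of 9 mouse organoid samples and deposited raw counts per gene symbol. The submitters' processing notes name mm9, RSEM and Bowtie2 2.2.4, and whether counting used strand is not given in the sources used here. Totals were 30881206 to 48412477 counts per sample. MIN 1 was deposited as 2 runs and their sum. The runs gave a chi-square of 1.19 per gene, where replicates gave 18.6 to 81.7, so the sum was used as 1 sample. Symbols of 27 rows were dates and were not named.

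From these counts, genes were filtered with filterByExpr, normalized by TMM and tested in edgeR 4.0.16 (glmQLFit with robust estimation, R 4.3.3), fitting the groups compared, with Benjamini-Hochberg adjustment. On simulated counts it recovered 99, 97 and 99 of 100 genes changed by 3 and 84, 89 and 85 of 100 changed by 1 on the log2 scale, for adenoma over MIN, sulindac over adenoma and sulindac over MIN. There, 0, 3 and 2 unchanged genes were called. The simulation changed 200 genes and gave every gene the same dispersion, so its recovery does not carry over to genes that vary more. Intervals are exact and cover counting error only. Transcript lengths and shared 50-base stretches came from GENCODE M21, and promoters, not in the build of the counts, from RefSeq GRCm38.p6.

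The genes and lists were chosen with earlier results of these data known. The text names all 10 genes, the list genes with the largest changes that passed in each direction, and the 6 genes most like Apoa1 in log2(CPM + 0.5), centred per gene, at a mean of at least 1 CPM. Some of these genes are not reported here. Genes named that did not pass, the flanking genes, the cell type markers singled out, Apobec1, Hnf4a, Nr1h4, Ppara, Hnf4g, Npc2, Fgf15 and Olfm4 were chosen after their values were seen. MIN and adenoma samples of the same number shared deviations from their group means (correlations 0.13, 0.11 and 0.19), although the labels do not say that a number marks a shared animal. Alternatives were scaling by RLE or by library size alone, dropping the filter or asking for 10 counts in each sample, all 9 samples in 1 fit, the replicate block, DESeq2 1.42.0 and leaving out each sample.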

Additional observations from a re-analysis of the deposited data

How the results depend on the processing

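Between each adenoma group and MIN, the 10 genes kept their calls and directions under every alternative that could test them. With at least 10 counts in every sample, 5 genes could be tested in each comparison, so 4 were lower and 1 higher in adenoma than MIN, 4 were lower in treated adenoma than MIN, and 1 was lower with sulindac than without. Between treated and untreated adenoma, 1 gene (Apob) was higher with all 9 samples in 1 fit, with DESeq2 and with the replicate block (adjusted p = 0.00653), although same-numbered samples did not all deviate together there (correlations 0.26, 0.21 and -0.08). The block changed no other call of the 10 genes. In that comparison, with 1 sample left out, 1 to 2 of the 10 genes were lower and 0 to 1 higher, and 386 to 1488 of all genes were lower and 423 to 1403 higher, against 1179 and 1078. Counts over 1.5 times lower came without Adenoma 2 (622 and 576), Sulindac 1 (492 and 489), Sulindac 2 (631 and 608) and Sulindac 3 (386 and 423). Library size alone gave 1983 lower and 603 higher genes and moved the median of all genes to -0.18, and to 0.12 between adenoma and MIN. DESeq2 gave 1778 higher genes. The change of Scarb1 with sulindac turned to 0.0020 without the low-count filter, and with 1 sample left out it lay between -0.046 and 0.0048. The causes of these shifts were not tested. Genes at 0 to 10 counts per sample (Apoa1, Apoa4, Apoc3 and Fabp1 in adenoma) are near the limit of the depth, so a further fall with sulindac was not detectable for them.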
